A study of Mus musculus with 11 samples.

Results

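The 10 genes described here move minerals into milk or control that movement: 4 calcium pumps (Atp2b2, Atp2b1, Atp2c1, Atp2c2), 2 zinc exporters (Slc30a2, Slc30a4), a phosphate transporter (Slc34a2), the iodide transporter (Slc5a5), the calcium-sensing receptor (Casr) and parathyroid hormone-related protein (Pthlh). They were taken by name, for their known roles, from the 22196 genes obtained from the deposited transcript tables. The study sequenced RNA from the whole inguinal mammary gland of mice to ask how loss of Tsc1 in adipocytes alters that gland. Both groups carried 2 floxed copies of Tsc1 (Tsc1-fl/fl), an inhibitor of the growth kinase complex mTORC1. The 6 Knockout libraries came from mice that also carried the Cre transgene (Adipoq-Cre-Tg/+), and the 5 Wild-Type libraries came from mice without it (Adipoq-Cre-+/+), so that "Wild-Type" is a floxed control. Because the adiponectin gene Adipoq drives the Cre, the deletion is aimed at adipocytes, whereas transport of minerals into milk is known as work of the milk-making epithelium. All animals had normal chow, and the labels give the age as PND16.5 and glands taken 16 days after delivery, without stating that the mice were lactating. The labels do not say outright that each library is a separate animal, so p-values measure only the spread between these samples.

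Milk is far richer in calcium, phosphate and zinc than plasma, and epithelial cells of the alveoli build that difference by transport. Calcium enters the cell from the blood side, is pumped into the Golgi for packing into casein micelles, and is also pumped out through the apical membrane. Zinc is loaded into secretory vesicles, phosphate crosses the apical membrane with sodium, and iodide is taken up from blood at the basolateral membrane. The calcium-sensing receptor reads blood calcium and is known to restrain the hormone PTHrP, which draws calcium from bone during lactation.

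Depth was 25817975 to 37894237 estimated reads per library. Levels within a gene are given as CPM, counts scaled to library size with TMM factors, which correct for the few genes that take most of the reads. Levels between genes are given as TPM, in which counts are also divided by transcript length. The 11 listed milk protein genes took 61.7% to 68.2% of the counts in the Knockout libraries and 65.5% to 72.0% in the Wild-Type libraries. The 7 adipocyte genes summed to 758 to 1394 CPM with the Cre and to 445 to 766 CPM without it, and 6 of the 7 were fitted above 0. Summed CPM of 6 alveolar luminal genes was 176084 to 259993 against 218234 to 323536, and that of 6 myoepithelial genes 455 to 634 against 364 to 658. Tsc1 itself was fitted at -0.09 ± 0.11 (log2 Knockout over Wild-Type, SE; adjusted p = 0.772, edgeR), and it ranged from -0.16 with transcript length offsets to 0.10 with libraries scaled to their totals alone (-0.028 without Knockout 1 and -0.039 without Wild-Type 1). The values come from all cells of the gland, and whether the counted transcripts lie over the deleted exons was not examined. In bulk tissue, fewer cells of a type and less RNA per cell cannot be told apart.

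None of the mineral genes passed the test for a genotype difference. Of the 10 members, 9 had enough reads to be tested and 0 passed an adjusted p of 0.05 with edgeR's quasi-likelihood test, against 0.055% of the 12716 genes tested (0.0472% higher and 0.00786% lower in Knockout). At an unadjusted p under 0.05 there was 1 member, Atp2b1, against 12.4% of all genes, and DESeq2 called 0 members against 0.96% of the genes it tested. In all 10 members the 2 groups overlapped, whereas they did not overlap in 1.32% of the genes tested. Of the 9 tested members 7 were fitted below 0 and 2 above it, with a median of -0.15, beside 51.7% of all genes below 0 and a median of -0.01. Among the marker lists, those fitted above 0 were 1 of 11 milk protein genes, 2 of 6 alveolar luminal genes and 6 of 6 myoepithelial genes, and the part of these lists in the members' values was not tested. With library totals alone the median of all genes moved to 0.18, and Atp2c2, Slc30a2 and Slc5a5 turned to above 0 (0.06, 0.11 and 0.05).

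**Figure D1:**
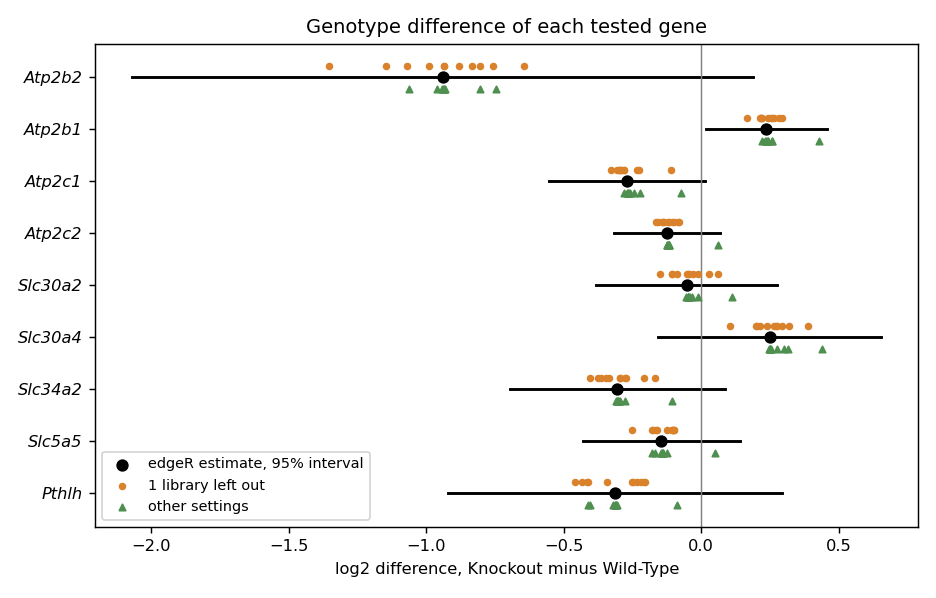
Log2 difference between Knockout and Wild-Type for the 9 tested members: black points and lines are the edgeR estimate with its 95% confidence interval (6 and 5 libraries), small circles the fits without 1 library and triangles the other settings; values below 0 are lower in Knockout. The interval of Atp2b2 is the widest, from -2.07 to 0.19, and that of Atp2b1 runs from 0.02 to 0.46.

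In length-corrected level the members spread over a wide range, with the phosphate transporter at the top. Mean TPM over the 11 libraries was 164 ± 29.5 (SD, n = 11) for Slc34a2, 88.1 ± 9.60 for Atp2c2, 46.5 ± 16.3 for Pthlh and 26.8 ± 3.80 for Atp2c1. Below them stood Slc30a2 at 18.3 ± 3.83, Atp2b2 at 10.6 ± 5.89, Slc5a5 at 3.07 ± 0.65, Slc30a4 at 2.71 ± 0.70 and Atp2b1 at 1.89 ± 0.51. Casr was at the bottom, with a mean of 0.0025 TPM. Pthlh stood above Atp2c1 only through the length correction. Its listed length is 528 bases, and it had 510 to 1746 reads per library against 3617 to 8185 for Atp2c1. Each gene stood above the next in 11 of 11 libraries, except that Atp2c1 exceeded Slc30a2 in 10, Slc30a2 exceeded Atp2b2 in 9 and Slc5a5 exceeded Slc30a4 in 7. The last of these neighbours were therefore not separated beyond the spread between libraries. Thus among the members the milk-side forms stood above a widely expressed relative, Atp2c2 above Atp2c1 and Atp2b2 above Atp2b1, in every library. This does not extend to Atp2b4, a plasma membrane calcium pump outside the members. It averaged 22.2 TPM (1.54 to 208), from 1775 reads in total over the 11 libraries.

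**Figure D2:**
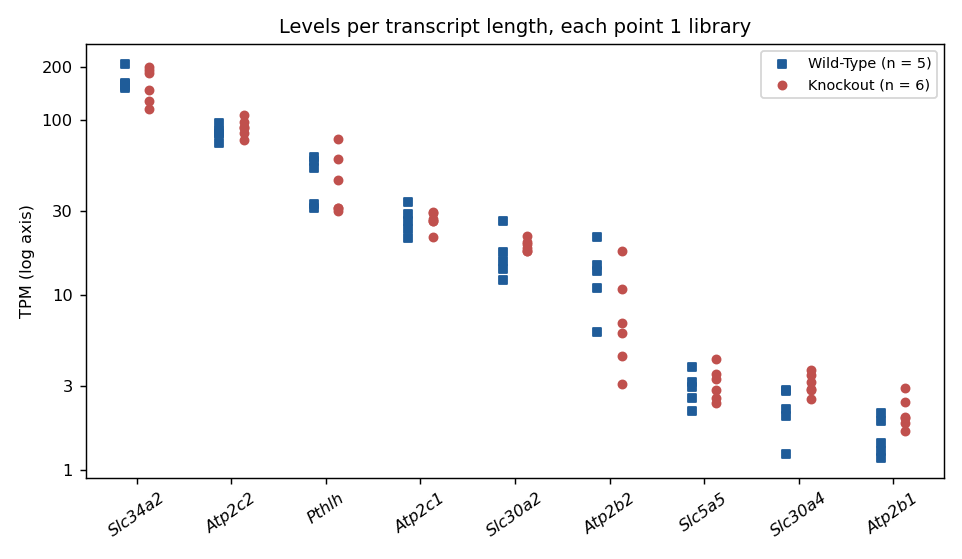
TPM of 9 members on a log axis, ordered by mean, with 1 point per library (squares, 5 Wild-Type; circles, 6 Knockout); Casr is not drawn. The points fall from a mean of 164 TPM for Slc34a2 to 1.89 TPM for Atp2b1, and those of Atp2b2 are the most spread.

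The calcium pumps come first. Atp2b2 (ENSMUSG00000030302, chromosome 6, 113743831 to 114042613, minus strand, GRCm38) encodes PMCA2, the plasma membrane pump that sends calcium across the apical membrane into milk, and mice that lack it are known to make milk poor in calcium. Splicing can insert a short stretch, called w, that directs the pump to the apical membrane. In the annotation the insert is 135 bases in 3 exons of 33, 60 and 42 bases (113803747 to 113803779, 113802486 to 113802545 and 113797110 to 113797151), a multiple of 3, and it is printed because it decides which form of the pump the gland makes. All sequences are coding bases read 5′ to 3′ from the GENCODE M21 transcripts of GRCm38, and here the middle exon is in capitals.
Atp2b2 insert: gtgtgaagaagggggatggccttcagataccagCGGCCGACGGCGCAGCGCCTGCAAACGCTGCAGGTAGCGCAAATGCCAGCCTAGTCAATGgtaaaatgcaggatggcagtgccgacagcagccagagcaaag
Only 1 annotated coding transcript in the tables held all 3 exons, ENSMUST00000101044.8 (3732 bases as listed), and it carried between 96.7% and 99.4% of the Atp2b2 TPM in every library. A transcript without the insert and with other last exons, ENSMUST00000152831.7, carried 0.60% to 3.26%. The transcript that differs from the leading one by the insert alone, ENSMUST00000101045.9, was assigned 0 reads in all 11 libraries. It holds no 31-base word of its own within the gene, whereas the insert-bearing transcript holds 161, so that the division between these 2 rests on reads over the insert and its borders. The insert-bearing form was thus the main form in both genotypes.

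The level of Atp2b2 differed widely between libraries of one genotype. The Knockout libraries held 52.3, 28.0, 65.1, 117, 185 and 43.4 CPM for replicates 1 to 6. The Wild-Type libraries held 135, 159, 273, 58.6 and 160 CPM for replicates 1 to 5. No library lay between 65.1 and 117 CPM: 4 Knockout and 1 Wild-Type libraries were at or below the first value, and 2 Knockout and 4 Wild-Type libraries at or above the second. The fitted difference was -0.94 ± 0.51 (log2, SE; 95% interval -2.07 to 0.19), a 0.52-fold level in Knockout with an interval from 0.24 to 1.14 (adjusted p = 0.486, edgeR quasi-likelihood test). In TPM the means were 8.201 ± 5.43 (SD, n = 6) and 13.4 ± 5.61 (n = 5). The within-group SD of 0.91 on the log2 scale was larger than that of 99.6% of the 500 genes nearest in level, whose median SD was 0.16. From Knockout 2 to Wild-Type 3 the CPM differed 9.73-fold. Its lowest count was 822 reads, so counting error is small beside this spread.

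**Figure D3:**
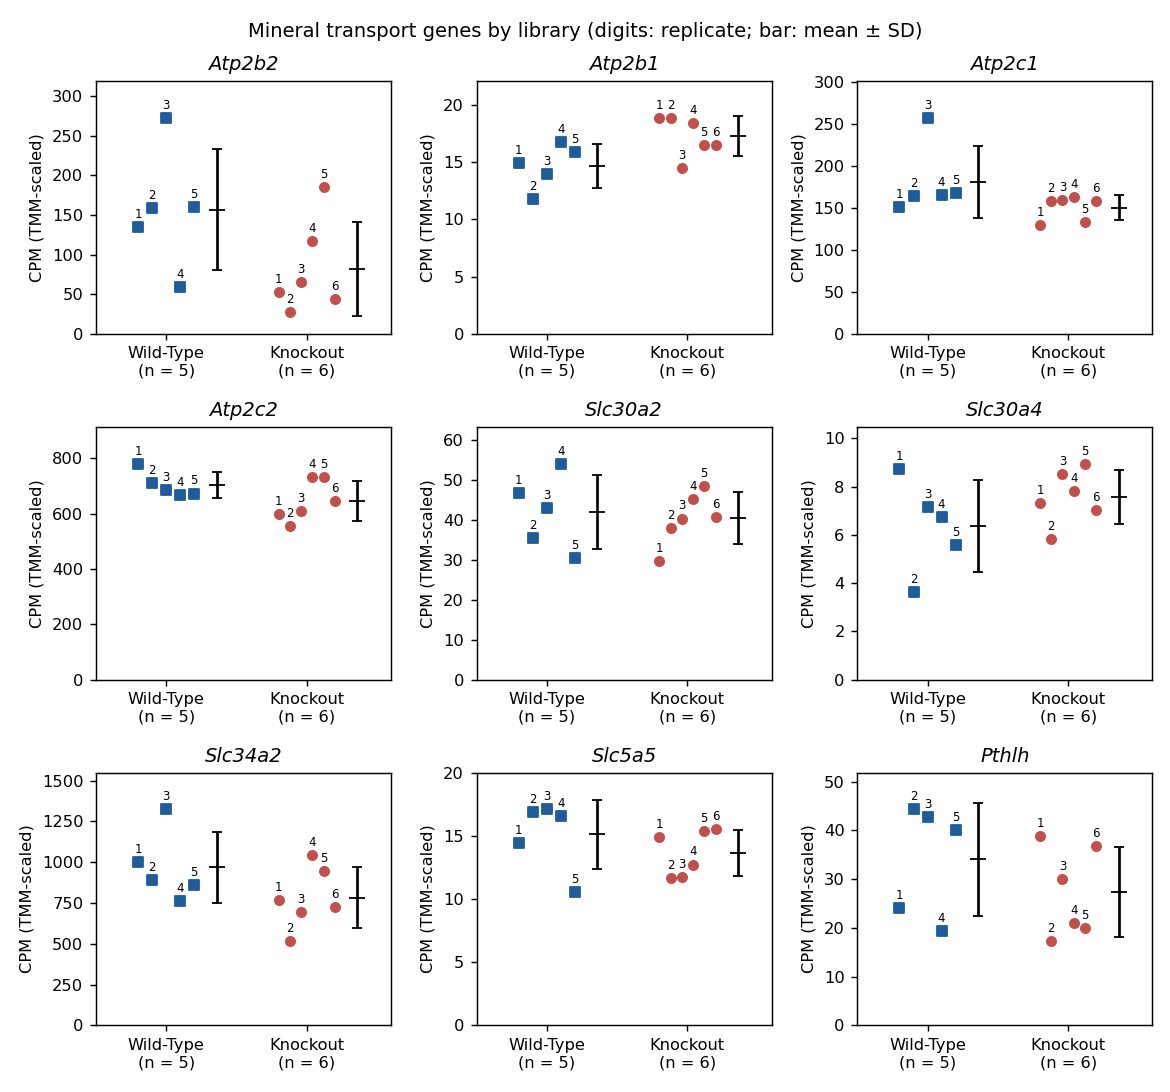
CPM of 9 members in each library, each gene on its own axis from 0, with 5 Wild-Type and 6 Knockout points labelled by replicate number and a bar for the mean ± SD of each group; Casr is not drawn. The Atp2b2 points run from 28.0 to 273 CPM and overlap between groups, whereas those of Atp2c2 stay between 554 and 780 CPM.

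Atp2b1 (ENSMUSG00000019943, chromosome 10, 98914406 to 99026143) encodes PMCA1, the widely expressed housekeeping pump of the plasma membrane, and was the member with the smallest p. The Knockout libraries held 18.9, 18.9, 14.5, 18.4, 16.52 and 16.53 CPM. The Wild-Type libraries held 15.0, 11.8, 14.0, 16.8 and 15.9 CPM. Of the Knockout libraries 3 exceeded every Wild-Type library and 3 lay within their range. In the edgeR fit the difference was 0.24 ± 0.10 (95% interval 0.02 to 0.46, unadjusted p = 0.0367 and adjusted p = 0.374 by its quasi-likelihood test) and did not pass. With library totals alone it was 0.43. The ratio of the 2 plasma membrane pumps within a library needs no scaling between libraries. The log2 ratio of Atp2b2 to Atp2b1 averaged 1.96 ± 1.04 (SD, n = 6) over Knockout libraries and 3.27 ± 0.93 (n = 5) over Wild-Type libraries. An exact two-sided permutation test gave p = 0.0606, adjusted to 0.179 over the 3 ratios examined. The difference of -1.31 thus did not hold up against the spread between libraries.

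Atp2c1 and Atp2c2 encode the calcium pumps of the Golgi, SPCA1 and SPCA2, which fill the secretory pathway with calcium and manganese. SPCA2 is the form enriched in secretory epithelia such as the lactating gland, where it is also known to act with the channel protein Orai1 in calcium entry. Atp2c2 (ENSMUSG00000034112, chromosome 8, 119700009 to 119757717) stood at 600, 554, 607, 731, 731 and 645 CPM in Knockout libraries. In Wild-Type libraries it stood at 780, 711, 683, 667 and 672 CPM. It was the steadiest member, with a highest value 1.41-fold its lowest; 4 Knockout libraries lay below every Wild-Type library and 2 lay within their range. The edgeR difference was -0.12 ± 0.09 (95% interval -0.32 to 0.07, adjusted p = 0.590), and -0.08 without Knockout 2.

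Atp2c1 (ENSMUSG00000032570, chromosome 9, 105403539 to 105527319, minus strand) stood at 129, 158, 160, 163, 133 and 158 CPM in Knockout libraries. In Wild-Type libraries it stood at 151, 164, 257, 166 and 167 CPM. The third Wild-Type library stood apart from the other 4. In the edgeR fit Atp2c1 differed by -0.27 ± 0.13 (95% interval -0.55 to 0.01, adjusted p = 0.426), and without that library it was -0.11. With library totals alone the difference was -0.07. The log2 ratio of Atp2c2 to Atp2c1 averaged 2.10 ± 0.23 (SD, n = 6) over Knockout libraries and 1.98 ± 0.35 (n = 5) over Wild-Type libraries, with an exact permutation p of 0.541 that stayed at 0.541 after adjustment. Its difference of 0.12 turned to -0.02 without Wild-Type 3.

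Atp2c1 was the member with the most mixed transcripts. Its annotated transcripts begin their coding sequence in an upstream first exon, in a downstream one or further within the gene. The upstream exon (chromosome 9, 105521040 to 105521147, minus strand, 108 bases) is printed because transcripts with it were the most abundant, and its start codon is in capitals.
Atp2c1 upstream first coding exon: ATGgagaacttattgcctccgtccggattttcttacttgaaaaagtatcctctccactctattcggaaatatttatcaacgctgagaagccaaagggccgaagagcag
Transcripts with this exon carried 45.4% to 70.2% of the Atp2c1 TPM, those with the downstream start 11.996% to 35.8%, and those that start within the gene 12.4% to 27.1%. The downstream share averaged 27.6% ± 5.70 (SD, n = 6) over Knockout libraries and 18.9% ± 5.91 (n = 5) over Wild-Type libraries, a difference that was not tested. The leading transcript, ENSMUST00000085133.12, held 48.0% ± 5.84 (SD, n = 6) over Knockout libraries and 50.8% ± 10.2 (n = 5) over Wild-Type libraries (exact permutation p = 0.597). It has no 31-base word to itself within the gene, so its share rests on how the quantifier divided shared reads. The same holds for ENSMUST00000112558.9, the main transcript with the downstream start. Most of the share that starts within the gene came from ENSMUST00000177293.7 (12.4% to 26.9%). Its first coding bases lie in an exon that other transcripts share, and its last coding exon (105407189 to 105407203) is its own. Its share therefore does not measure the choice of start.

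**Figure D4:**
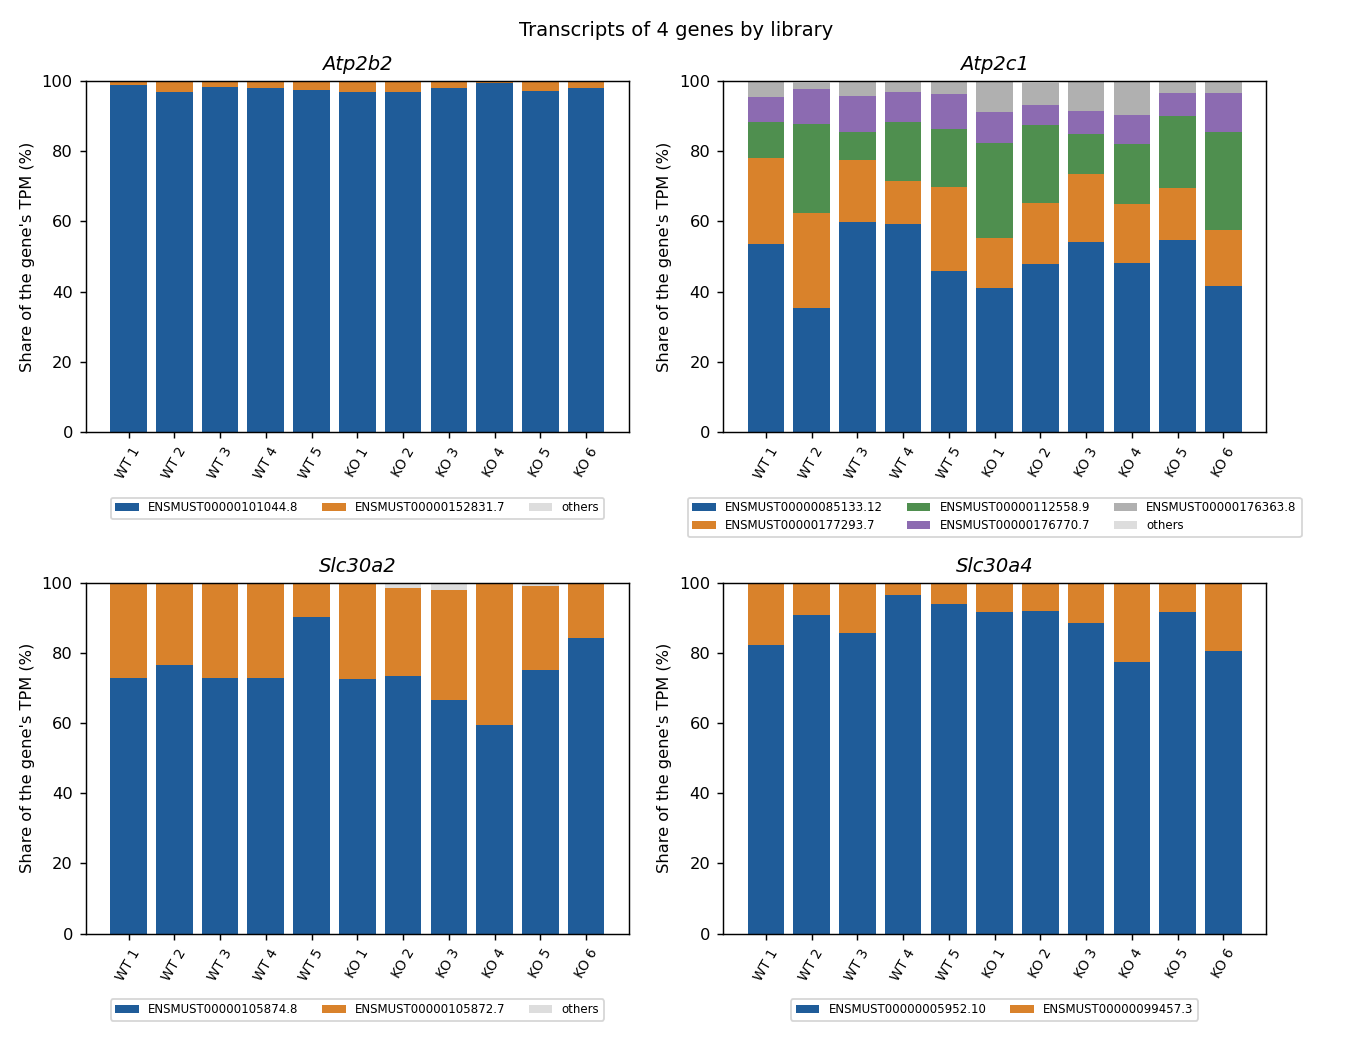
Stacked bars of the share of a gene's TPM (percent) held by each annotated transcript in each library, for Atp2b2, Atp2c1, Slc30a2 and Slc30a4. The insert-bearing transcript of Atp2b2 fills 96.7% to 99.4% of every bar, whereas the leading transcript of Atp2c1 fills 35.4% to 59.7%.

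The zinc exporters were at moderate and low levels. Slc30a2 (ENSMUSG00000028836, chromosome 4, 134343181 to 134354484) encodes ZnT2, which loads zinc into secretory vesicles of the milk-making cell, and its loss in nursing mothers is known to leave infants short of zinc. The Knockout libraries held 29.7, 38.0, 40.3, 45.2, 48.3 and 40.7 CPM. The Wild-Type libraries held 46.6, 35.5, 42.8, 54.0 and 30.4 CPM. The groups lay over one another, with 5 of 6 Knockout libraries inside the Wild-Type range, and the fitted difference was -0.05 ± 0.15 (95% interval -0.38 to 0.28, adjusted p = 0.915, edgeR). Its sign changed when single libraries were left out.

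Slc30a4 (ENSMUSG00000005802, chromosome 2, 122681233 to 122702663, minus strand) encodes ZnT4, the exporter lost in the lethal milk mouse, whose pups die of zinc shortage. The Knockout libraries held 7.33, 5.83, 8.52, 7.82, 8.96 and 7.03 CPM. The Wild-Type libraries held 8.72, 3.63, 7.16, 6.74 and 5.58 CPM. All but 1 of the Knockout libraries lay inside the Wild-Type range. The fitted difference was 0.25 ± 0.19 (95% interval -0.16 to 0.65, adjusted p = 0.612, edgeR), and 0.10 without Wild-Type 2, which held the lowest value. It was 0.39 without Wild-Type 1 and 0.44 with library totals alone. The log2 ratio of Slc30a2 to Slc30a4 averaged 2.41 ± 0.24 (SD, n = 6) over Knockout libraries and 2.75 ± 0.38 (n = 5) over Wild-Type libraries, with an exact permutation p of 0.119, adjusted to 0.179.

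Both zinc exporter genes have an annotated transcript that skips an exon of 147 bases. The exon is chromosome 4, 134345903 to 134346049, plus strand, in Slc30a2, and chromosome 2, 122694395 to 122694541, minus strand, in Slc30a4. The exons are printed together because they are equally long and can be set base against base, and capitals mark the 85 of 147 positions (57.8%) where they carry the same base.
Slc30a2 exon: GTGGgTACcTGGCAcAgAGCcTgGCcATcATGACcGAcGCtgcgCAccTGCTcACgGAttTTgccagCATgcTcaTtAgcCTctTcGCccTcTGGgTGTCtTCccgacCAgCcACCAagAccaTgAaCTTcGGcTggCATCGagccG
Slc30a4 exon: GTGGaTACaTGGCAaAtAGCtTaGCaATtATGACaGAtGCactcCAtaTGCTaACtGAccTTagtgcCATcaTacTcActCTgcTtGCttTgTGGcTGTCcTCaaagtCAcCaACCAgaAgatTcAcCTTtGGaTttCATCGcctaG
Skipping of this exon was rare in Slc30a2 and more frequent in Slc30a4. The Slc30a2 transcript without it (ENSMUST00000105873.7) held 0% to 2.19% of the gene's TPM, and the Slc30a4 transcript without it (ENSMUST00000099457.3) held 3.67% to 22.6%. These shares rest on few estimated reads per library, 0 to 23.7 in Slc30a2 and 7.085 to 52.3 in Slc30a4. The rest of Slc30a2 was divided between the full transcript ENSMUST00000105874.8 and a shorter one, ENSMUST00000105872.7, which starts 240 coding bases further down, lies whole within the full transcript and held 9.19% to 40.2%. With no bases of its own, the share of the short transcript rests on read coverage alone. The leading transcript of Slc30a2 held 71.8% ± 8.33 (SD, n = 6) over Knockout libraries and 77.1% ± 7.53 (n = 5) over Wild-Type libraries (exact permutation p = 0.312). For Slc30a4 it held 86.8% ± 6.36 (SD, n = 6) and 89.7% ± 5.87 (n = 5) with an exact permutation p of 0.439, and all 3 such shares examined had an adjusted p of 0.597.

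Slc34a2 (ENSMUSG00000029188, chromosome 5, 53038081 to 53071664) encodes NaPi-IIb, the sodium-coupled phosphate transporter of the apical membrane. The Knockout libraries held 769, 519, 695, 1043, 947 and 723 CPM. The Wild-Type libraries held 999, 893, 1324, 765 and 857 CPM. Of the Knockout libraries 3 lay below every Wild-Type library and 3 within their range, with Knockout 2 lowest and Wild-Type 3 highest, as for Atp2b2. Knockout differed from Wild-Type by -0.31 ± 0.18 (95% interval -0.70 to 0.08, adjusted p = 0.511, edgeR), and -0.17 without Wild-Type 3. With library totals alone the difference was -0.11.

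Slc5a5 (ENSMUSG00000000792, chromosome 8, 70882889 to 70892757, minus strand) encodes NIS, the sodium-iodide symporter that supplies the newborn's thyroid through milk. The Knockout libraries held 14.9, 11.7, 11.8, 12.8, 15.4 and 15.5 CPM. The Wild-Type libraries held 14.5, 16.9, 17.1, 16.6 and 10.6 CPM. All 6 Knockout libraries lay inside the Wild-Type range, since Wild-Type 5 held the lowest value of all. The fitted difference was -0.15 ± 0.13 (95% interval -0.43 to 0.14, adjusted p = 0.681, edgeR), and -0.25 without Wild-Type 5.

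The calcium-sensing receptor was hardly detected. Casr (ENSMUSG00000051980, chromosome 16, 36493696 to 36562141, minus strand) had 5 reads in Knockout 1, 2 reads in Wild-Type 4 and 0 in the other 9 libraries, and it was not tested. A count of 0 allows up to 3 counts, which is 0.0854 to 0.125 CPM in the 9 libraries at 0; intervals and limits cover counting error only. Casr was therefore below detection in most libraries at this depth, and no genotype comparison was possible. Pthlh (ENSMUSG00000048776, chromosome 6, 147252101 to 147264183, minus strand) encodes PTHrP, the hormone made by the gland that mobilises bone calcium. Its Knockout libraries held 38.8, 17.4, 30.1, 21.0, 20.01 and 36.8 CPM. Its Wild-Type libraries held 24.1, 44.3, 42.7, 19.3 and 40.0 CPM. High and low libraries occurred in both genotypes, and the within-group SD of 0.52 on the log2 scale exceeded that of 96.6% of the 500 genes nearest in level. The fitted difference was -0.31 ± 0.28 (95% interval -0.92 to 0.29, adjusted p = 0.674, edgeR), and it ranged from -0.46 to -0.09 over the alternatives examined.

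Of the 8 other tested members, 2 had a Pearson r above 0.5 with Atp2b2 from library to library, Slc34a2 and Atp2c2. Over the 11 libraries Atp2b2 and Slc34a2 had a Pearson r of 0.90 in log2 CPM (Spearman rho 0.78), an r of 0.87 when genotype means were removed, and an r of 0.79 without the 2 libraries farthest from the Slc34a2 median (Wild-Type 3 and Knockout 2). Atp2c2 had an r of 0.76 with Atp2b2 (0.69 with genotype means removed) and of 0.78 with Slc34a2. Atp2b1 had an r of -0.58 with Atp2b2, which was -0.37 with genotype means removed, and the other 5 members lay between -0.02 and 0.42. No library lay between 65.1 and 117 CPM of Atp2b2, and within the 6 libraries above that gap r was 0.58 for Slc34a2 and -0.55 for Atp2c2. These 6 were chosen by their Atp2b2 values, which narrows its range. Any r within them therefore cannot be set against the r of all 11. These are descriptions of 11 libraries that share depth and scaling, with no test.

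Among all other tested genes, the 2 most like Atp2b2 over the 11 libraries were Tbc1d13, which encodes a GTPase-activating protein for Rab proteins, at r = 0.96 (16.8 to 29.6 CPM) and B4galt1 at r = 0.96 (152 to 333 CPM). B4galt1 is the galactosyltransferase that forms lactose synthase together with alpha-lactalbumin. They were the 2 highest of the 12699 genes compared (those tested, without the 9 members and 8 rows that repeat a gene symbol), of which 41 had an r beyond 0.9 in either direction. Within the 6 libraries above the gap r was 0.95 for Tbc1d13 and 0.84 for B4galt1, but both were chosen on libraries that include these 6. The summed CPM of the milk protein genes had an r of 0.81 with Atp2b2 (0.80 without the 2 libraries farthest from the median of that sum, 0.43 within the 6), and the alveolar luminal genes, which share 3 of the milk protein genes, an r of 0.78. Skeletal muscle genes, which were highest in Knockout 1 (2037 summed CPM) and ranged from 0.69 to 170 in Wild-Type, had an r of -0.64 with Atp2b2. The part of these lists in the Atp2b2 values was not tested.

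**Figure D5:**
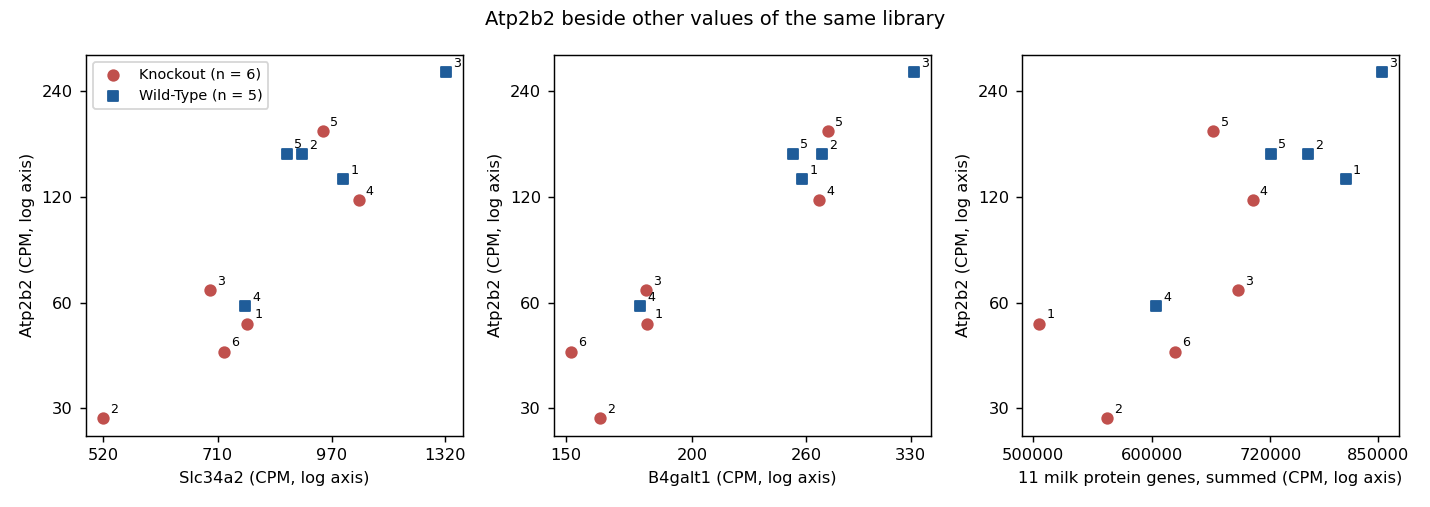
CPM of Atp2b2 against the CPM of Slc34a2, of B4galt1 and of the summed milk protein genes, all on log axes, with 1 point per library labelled by replicate number (circles, Knockout; squares, Wild-Type). Points of both genotypes lie along the same band, with Pearson r of 0.90, 0.96 and 0.81 over 11 libraries.

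Other members had other companions. Slc30a2 was most like Ormdl3, a regulator of sphingolipid synthesis, and Rab15, an endosomal GTPase, each at r = 0.94. Slc34a2 was most like Pcbp4 at 0.94 and Gemin4 at 0.91, both at low counts of 100 to 237 reads. Slc5a5 was most like Tns2 at 0.90 and Fam181b at 0.86. The strongest inverse relation among members was that of Slc30a2 and Pthlh, at -0.64.

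Other genes of the same pathways gave no calls in the edgeR fit of all 11 libraries. Of 73 genes in 5 lists of related transporters, channels and hormone genes, 50 were tested and 0 passed with edgeR, 24 fitted above 0 and 26 below it, with a median of -0.03. At an unadjusted p under 0.05 there were 2 higher and 3 lower, beside 6.31% and 6.08% of all genes. DESeq2 called 1, Slc39a10, beside 0.96% of all genes it tested.

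Of the calcium genes 14 of 18 were tested, 6 fitted above and 8 below 0. Atp2a3, a calcium pump of the endoplasmic reticulum known from immune and some epithelial cells, lay between 2.54 and 5.06 CPM with the Cre and between 4.33 and 14.6 CPM without it, a difference of -1.11 ± 0.33 (adjusted p = 0.275, edgeR). Stim2, a sensor of stored calcium that opens Orai channels, was at 25.6 to 41.6 against 34.6 to 51.3 CPM (-0.31 ± 0.13, adjusted p = 0.373, edgeR). Both overlapped between groups. Beside them, 4 T cell genes summed to 0.68 to 4.26 CPM in the Knockout group against 0.81 to 15.9 CPM in the Wild-Type group, and 3 lymph node stroma genes to 1.67 to 4.597 CPM against 1.296 to 27.7 CPM. None of the 5 tested genes of these lists was fitted above 0, Wild-Type 2 and 5 held the highest sums of both lists, and 2 of the 3 stroma genes were at 0 in at least 1 library. The part of these lists in the Atp2a3 values was not tested. Orai1 was at 36.5 TPM and Calr, a calcium-binding chaperone, at 80.1 TPM on average.

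Of the zinc genes 19 of 25 were tested, 11 fitted above and 8 below 0. Slc39a10, which imports zinc across the plasma membrane, lay between 4.87 and 8.004 CPM with the Cre and between 4.05 and 4.99 CPM without it, with a slight overlap. Its difference was 0.56 ± 0.13 (adjusted p = 0.218, edgeR) and it passed with DESeq2 (adjusted p = 0.0214). Slc39a6, its closest relative, went the other way at -0.29 ± 0.11 (adjusted p = 0.339, edgeR), from 29.5 to 42.2 against 37.0 to 49.3 CPM. The metallothioneins Mt1 and Mt2, which bind zinc in the cell, were the highest of these genes at 753 and 514 TPM, and their fitted differences were 0.05 and 0.14.

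Of the phosphate genes 6 of 8 were tested. Xpr1, a phosphate exporter, was at 0.22 ± 0.15 (adjusted p = 0.579, edgeR) and Alpl, the tissue-nonspecific alkaline phosphatase, at 0.14 ± 0.10 (adjusted p = 0.592, edgeR). Only 4 of 10 iodide genes were tested. Slc5a8, a sodium-coupled monocarboxylate transporter, lay between 3.30 and 12.8 CPM with the Cre and between 0.67 and 8.19987 CPM without it (1.35 ± 0.62, adjusted p = 0.412, edgeR), and Lpo, the peroxidase of milk, was at -0.13 ± 0.17 (adjusted p = 0.793, edgeR) with a mean of 26.4 TPM.

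Of the calcium hormone genes 7 of 12 were tested. Pth1r, the receptor for PTHrP, was at 0.57 to 4.02 CPM in Knockout libraries, median 0.75, and at 1.44 to 2.97 CPM, median 2.56, in Wild-Type libraries. Knockout 2 held the highest value and the other 5 Knockout libraries were low. The difference was -0.998 ± 0.51 (adjusted p = 0.456, edgeR), and without Knockout 2 it was -1.83 with an adjusted p of 0.00628. That fit left out the library with the highest Pth1r value. It called 28 genes in all, against 7 in the fit of all libraries, and no other fit examined called Pth1r. Counts behind it were 19 to 118 reads per library. Gnas, the stimulatory G protein that this receptor uses, was at -0.15 ± 0.08 (adjusted p = 0.468, edgeR).

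RefSeq promoter sequences (GRCm38.p6) were at hand for 9 of the 10 members, 13 promoters in all. The letters TTCNNNGAA, the core of the site bound by STAT5, the factor that prolactin activates, were searched on both strands because lactation genes are known to use it. None of the 13 held it, and 8.30% of the 32851 promoters in the table did. This says only that these letters are not within the short window around the start that the table covers.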

How the data were processed

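RNA of 11 mouse mammary glands was sequenced from directional libraries, per the labels' protocols. Estimated counts of reads, TPM and transcript lengths were deposited by the authors per transcript, with headers in the layout of Salmon. The submitters' processing notes name Salmon 1.3.0, DESeq2 1.28.1 and GRCm38.p6, without the index or the strand setting. The authors also deposited a gene table, whose name says counts normalized with DESeq2, treated here as a signal and used only for an alternative. Of the 58204 transcripts 57452 matched GENCODE M21 (GRCm38), and the rest held 0.195% to 0.265% of the reads. Listed lengths were within 3 bases of the coding length for 94.3% of transcripts, so that mostly coding sequence was counted.

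Counts were summed per gene and rounded. edgeR 4.0.16 in R 4.3.3 filtered low genes (filterByExpr), which left 12716, scaled by TMM and ran a robust quasi-likelihood test of genotype, with Benjamini-Hochberg adjustment and a threshold of 0.05. The common biological variation was 24.1%. Ratios and transcript shares were tested by exact permutation of genotype over the libraries (462 arrangements). The fit was also run on simulated counts in which every gene had the common variation of 24.1%. That run says nothing of genes as variable as Atp2b2. DESeq2 1.42.0, limma 3.58.1 (log2 with a pseudocount of 1), other scalings, length offsets, no filter and single libraries left out were alternatives; library totals without TMM, and replicates 1 to 5 without a block, were chosen after seeing the data.

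All 10 members and Tsc1 are named. So are, from each related list, genes past the threshold and the 2 with the smallest p. The 2 genes most correlated with each of 4 members are named too. Atp2b4, Orai1, Calr, Mt1 and Mt2 were named after their values were seen. Members and lists were chosen with earlier results of these data known. Genes on the opposite strand overlap Atp2b2, Atp2c1, Slc30a4 and Slc34a2, and reads of the 2 strands may be mixed. Of the 31-base words of a member at most 0.662% (Atp2b2) occur in another gene. No column lacked a sample.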

Additional observations from a re-analysis of the deposited data

Results flagged for a closer look

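Of 32 sets of 5 or 6 values, 4 held a library far from the others of its group by a rule for which chance flags about 1 in 20 groups. For 2 of the 4, both of Casr, a single library with any read among libraries at 0 is always picked out, so their number says nothing. Atp2c1 stood at 257 CPM in Wild-Type 3, and the other 4 Wild-Type libraries lay between 151 and 167 CPM. Casr stood at 0.111 CPM in Knockout 1, from 5 reads, and at 0.0607 CPM in Wild-Type 4, from 2 reads, with 0 in the other libraries of each group. The leading transcript of Slc30a2 held 90.2% of the gene's TPM in Wild-Type 5, and between 72.9% and 76.6% in the other 4.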

How the results depend on the processing

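No member passed the threshold under any alternative run (20 each), including every fit without 1 library. Over those alternatives Atp2b2 ranged from -1.35 to -0.64 and its adjusted p from 0.310 to 0.719. Genes past the threshold numbered 7 in the fit reported and 135 with DESeq2. They numbered 0 with the replicate block and 0 for replicates 1 to 5 with no block. Leaving out 1 library gave 0 to 28. Replicate numbers are not stated to pair animals, and same-numbered libraries did not deviate together (r of -0.0228, -0.0963, 0.187, -0.223 and -0.207); only Knockout 3 was most like the library of its own number. With the block Atp2b2 was at -0.96. Related genes past the threshold numbered 1 with DESeq2 (Slc39a10) and 0 to 1 without 1 library (Pth1r, without Knockout 2). With library totals alone, signs turned for Atp2c2 (0.062), Slc30a2 (0.11), Slc5a5 (0.049) and Tsc1 (0.10). Without 1 library Slc30a2 ranged from -0.15 to 0.059, and it also turned to 0.028 without Knockout 1. Likewise the log2 ratio of Atp2c2 to Atp2c1 ranged from -0.025 to 0.22, that of Atp2b2 to Atp2b1 from -1.68 to -1.03 and that of Slc30a2 to Slc30a4 from -0.42 to -0.20. Differences in leading transcript share ranged from -6.66 to -0.58 percentage points for Atp2c1, -7.73 to -1.99 for Slc30a2 and -4.78 to -0.99 for Slc30a4. The cause was not tested. Depth limits Casr, which cannot be compared.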
